A study of Mus musculus with 6 samples.

Results

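Kcnj12, Gm16486 and Polg2 are 3 of the 44713 genes in a count table of pancreatic islets from db/db and db/m mice. They were chosen by their counts, which were much lower in the 3 db/db mice than in the 3 db/m mice. This choice used no numeric threshold, so the differences in their counts are given as a description and were not tested. All 3 genes were among the 12760 that passed the filter on low counts. Kcnj12 and Gm16486 passed only through their level in db/m islets, while Polg2 was above the filter in every mouse.

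Kcnj12 encodes Kir2.2, an inward rectifier potassium channel that helps to hold the resting membrane potential of excitable cells. Polg2 encodes the accessory subunit of DNA polymerase gamma, the enzyme that copies mitochondrial DNA, and this subunit makes the polymerase processive. Gm16486 is the name in the count table for the gene that RefSeq calls Iqcn, IQ motif containing N, and IQ motifs are known as calmodulin-binding sequences.

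The study compared the transcriptomes of islets from diabetic and control animals. The db/db mice were labelled Lepr-/- and lack a functional long form of the leptin receptor, and the db/m mice, labelled wild type, were their lean controls. All 6 mice were 10 weeks old, and no treatment is given for either group. The labels give the strain as C57BL/6, and the methods give a BKS background with db/m littermates, so the shared background was not settled from these sources. Islet preparation used collagenase and a Histopaque gradient, and the libraries were made from total RNA depleted of ribosomal RNA.

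The libraries held 15641797 to 20614531 counts each, so that 3 counts, the number a count of 0 allows, corresponded to 0.146 to 0.192 counts per 1000000 (CPM). Levels below are CPM normalised by the trimmed mean of M-values (TMM), whose factors ran from 0.6047 to 1.75. The labelled cell type was islet cells. The study stained isolated islets for insulin as a check for acinar cells and reported that most cells were positive. In the counts, however, 13 acinar marker genes together took 40.7% to 55.6% of each library, and the insulin genes took 0.121% to 3.75%. The summed β-cell markers (10 genes) were 2490, 6460 and 5300 normalised CPM in db/db mice 1, 2 and 3 and 25200, 7670 and 7950 in db/m mice 1, 2 and 3. The groups did not overlap in this sum (p = 0.1, two-sided exact permutation test, the smallest p that 3 against 3 mice allow). At an unadjusted edgeR p under 0.05, 8 of the 10 β-cell markers were lower in db/db islets, beside 9.89% of all tested genes. Acinar markers summed to 536000 to 920000 normalised CPM in db/db and 234000 to 534000 in db/m islets (p = 0.1 by the same exact test, and 0.2 without TMM). The sums for alpha, delta, PP, duct, stromal, endothelial, leukocyte, Schwann and muscle cells overlapped between the groups, with the muscle marker Myh7 at 0 counts. In such bulk samples, fewer cells of a type and less RNA per cell cannot be told apart, and the part of β-cell and acinar content in the levels of Kcnj12, Gm16486 and Polg2 was not tested. Lepr had 4, 10 and 68 counts in db/db islets and 37, 25 and 8 in db/m islets, and since the db mutation alters splicing, a count over the whole gene does not check the genotype.

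On the GRCm38.p6 assembly (RefSeq annotation), Kcnj12 lay on the plus strand of chromosome 11 from 61022564 to 61073269 and Polg2 on the minus strand of the same chromosome from 106768204 to 106779537. Gm16486 lay on the plus strand of chromosome 8 from 70701321 to 70717650. The 250 bases before the annotated starts of Gm16486 and Polg2 are shown, 5′ to 3′ on the strand of the gene, because the gene that lies just upstream of each is described further on. Neither window overlapped an annotated gene. For Gm16486 the annotated start is that of predicted transcripts, and its curated transcripts start further downstream. Capitals mark the match to TGANTCA, the element bound by AP-1 transcription factors, and all other bases are in lower case.
Gm16486, chr8:70701071-70701320, plus strand: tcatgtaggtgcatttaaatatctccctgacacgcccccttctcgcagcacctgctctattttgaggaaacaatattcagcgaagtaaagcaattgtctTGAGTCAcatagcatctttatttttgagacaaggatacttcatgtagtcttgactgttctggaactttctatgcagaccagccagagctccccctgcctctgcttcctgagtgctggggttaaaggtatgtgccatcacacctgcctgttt
Polg2, chr11:106779538-106779787, minus strand: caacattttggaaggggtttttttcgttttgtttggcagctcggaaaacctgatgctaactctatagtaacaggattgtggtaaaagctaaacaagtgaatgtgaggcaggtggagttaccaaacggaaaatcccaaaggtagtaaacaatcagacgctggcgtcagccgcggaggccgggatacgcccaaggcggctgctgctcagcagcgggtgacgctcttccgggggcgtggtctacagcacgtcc

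The Gm16486 window was 45.6% G and C with 3 CG pairs, and the Polg2 window was 52.4% with 15 CG pairs, beside a median of 52.4% over the 32851 RefSeq promoter windows of the same length. Both strands were searched for 6 motifs. TGANTCA occurred 1 time, in the Gm16486 window, with no other motif overlapping it, and 6.75% of the promoter windows held it. No match to the other 5 was found in these windows. Among all promoter windows, the TATA box (TATAAA) stood in 12.4%, the CCAAT box in 33.8%, the GC box (GGGCGG) in 32.7%, the cAMP response element (TGACGTCA) in 1.55% and the E-box (CACGTG) in 6.02%.

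Kcnj12 was all but absent from db/db islets. It had 0, 1 and 0 counts in db/db mice 1, 2 and 3 and 236, 98 and 70 counts in db/m mice 1, 2 and 3. The lowest db/m mouse was therefore far above the highest db/db mouse. Normalised levels averaged 0.0199 ± 0.0345 CPM (SD, n = 3) in db/db and 6.05 ± 2.45 CPM (SD, n = 3) in db/m islets. The single db/db count made the ratio imprecise, at 283 for the depth-scaled summed counts of db/m over db/db, with a 95% counting interval (exact, Clopper-Pearson) of 50.4 to 11200. Among the db/m mice the normalised level spread 2.29-fold, from 3.79 to 8.66 CPM, which was the widest spread of the 3 genes within that group. The db/m mouse with the highest Kcnj12 level was also the one with the highest β-cell marker sum.

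Gm16486 was the most abundant of the 3 genes in db/m islets by counts. It had 2, 8 and 8 counts in db/db islets and 637, 662 and 522 counts in db/m islets. No db/db mouse came near the db/m range, and the lowest db/m level was 43.5 times the highest db/db level. Normalised levels averaged 0.392 ± 0.203 CPM (SD, n = 3) in db/db and 30.1 ± 7.75 CPM (SD, n = 3) in db/m islets, a log2 fold change of -6.19. Summed and scaled for depth, db/m counts were 70.8 times those of db/db, with a counting interval of 44.6 to 120. The intervals cover counting error only.

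Polg2 stayed measurable in every db/db mouse. It had 16, 41 and 27 counts in db/db islets and 328, 327 and 229 counts in db/m islets. The groups were again apart, with the lowest db/m level 4.91 times the highest db/db level. Normalised levels averaged 1.85 ± 0.584 CPM (SD, n = 3) in db/db and 14.5 ± 3.94 CPM (SD, n = 3) in db/m islets, a log2 fold change of -2.95. The ratio of the summed counts was 7.36, with a counting interval of 5.88 to 9.32. Like the others, this interval covers counting error only and not the variation between mice. It rests on the counts by which Polg2 was chosen, so the intervals of the 3 genes are not compared.

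**Figure D1:**
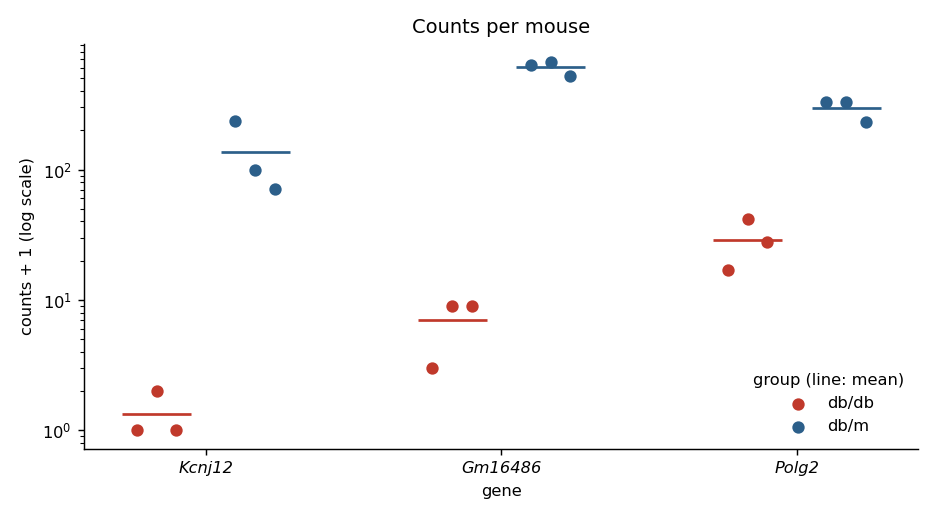
Counts plus 1 (vertical axis, log scale) of Kcnj12, Gm16486 and Polg2 in each of 3 db/db and 3 db/m mice; points are mice, in the order of their numbers, and lines are group means. The db/db points lie below all db/m points of the same gene, at 0 to 1, 2 to 8 and 16 to 41 counts.

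The order of the genes changed when levels were set per length of exon. Kcnj12, Gm16486 and Polg2 had 8647, 12630 and 2682 exonic bases, of which 1590, 9417 and 1380 were coding. Per kilobase of exon, the db/m level was highest for Polg2 at 5.40 ± 1.47 normalised CPM (SD, n = 3). Gm16486 followed at 2.38 ± 0.613 and Kcnj12 at 0.700 ± 0.284, and the means next to each other in this order were further apart than their SDs. In db/db islets the order was the same, at 0.690, 0.0311 and 0.0023 normalised CPM per kilobase. Levels per length assume that the whole annotated exon set is transcribed, which the table does not show.

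Mice labelled 1 stood apart in β-cell markers, with the lowest sum in db/db and the highest in db/m. When both were left out, an alternative chosen after seeing the data, the remaining β-cell marker sums were 5300 to 6460 in db/db and 7670 to 7950 in db/m. In these 4 mice Kcnj12 had 1 count against 168, Gm16486 had 16 against 1184 and Polg2 had 68 against 556. The ratios of the mean levels of db/m over db/db were 159, 65.7 and 7.37, beside 304, 76.6 and 7.83 in all 6 mice. The β-cell marker sums still did not overlap between the groups in these 4 mice, and the ratios contain the counts on which the genes were chosen. The part of β-cell content in them was not tested.

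To place the 3 genes among the rest, the ratio of mean levels was taken for the 11715 genes with at least 1 normalised CPM in db/m islets. In db/db islets, 142 of these (1.21%) were at least 8-fold lower, and 30 of the 11265 genes with at least 1 CPM in db/db islets were as much higher. Ranked by this ratio, Kcnj12 was at place 11, behind 10 genes with no count in db/db islets, Gm16486 was at place 15 and Polg2 at place 150. Polg2, at 7.83-fold, thus lay just outside the 8-fold range. The plot of mean levels shows the same order. By a rule set after seeing the counts, 8 genes had at least 50 counts in each db/m mouse and at most 10 in each db/db mouse, Kcnj12 and Gm16486 among them. The other 6 were Npas4, a neuronal activity-dependent transcription factor also found in β cells, Hmgb2, a chromatin protein, and Fam151a, Fam71a, B830017H08Rik and LOC102638121. The reverse held for 1 gene, Naip6, an inflammasome receptor gene of a multigene family whose reads could be split among near-identical copies.

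**Figure D2:**
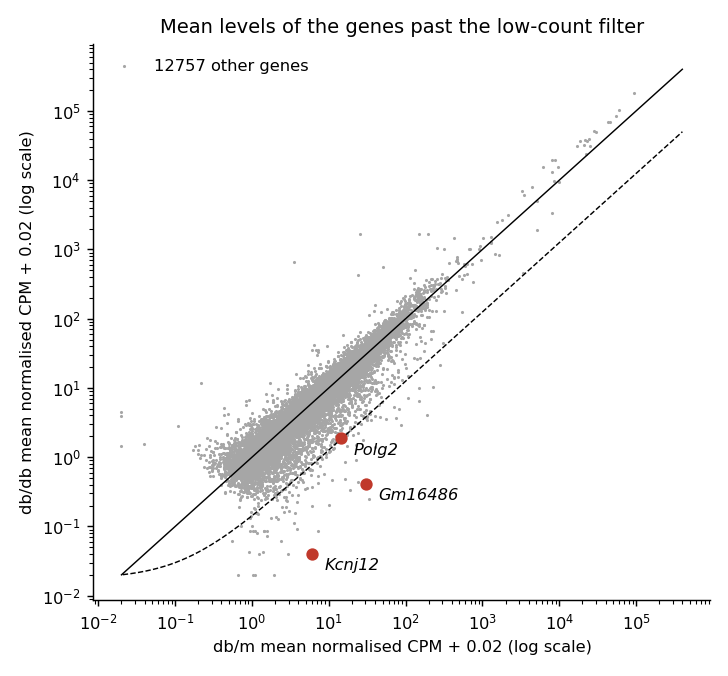
Mean normalised CPM plus 0.02 in db/m (horizontal) and db/db (vertical) islets, both on log scales, for the 12760 genes that passed the low-count filter; the solid line marks equal levels and the dashed line a level 8-fold lower in db/db. Kcnj12 and Gm16486 lie well below the dashed line and Polg2 lies at it.

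Across all tested genes, edgeR called 79 (0.619%) at an adjusted p under 0.05, of which 62 (0.486%) were lower and 17 (0.133%) higher in db/db islets. At an unadjusted p under 0.05, 9.89% were lower and 5.04% higher, and the 2 groups did not overlap for 12.6% in the lower and 8.53% in the higher direction. The counts of neighbouring and related genes below are read against these shares.

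Each gene's genomic neighbours were examined next, to see whether the difference extended along the chromosome. Of the 30 genes nearest to Kcnj12, Gm16486 and Polg2, 5 tested genes on each side, 1 was called lower in db/db islets. The median log2 fold change over these 30 genes was 0.11, and 13 of the 30 were below 0, against 50.1% of all tested genes. With library size alone, 26 of the 30 were below 0 and the median was -0.54, beside a median of -0.59 for all tested genes. Within 1000000 bases of the 3 genes, 129 genes were tested and the same 1 gene was called, while at an unadjusted p under 0.05 there were 8 lower and 7 higher.

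The called neighbour was Jund, which encodes the AP-1 subunit JunD and ends 704 bases before the annotated start of Gm16486 on the same strand. It had 361, 586 and 437 counts in db/db islets and 2931, 2082 and 1194 in db/m islets, and the groups did not overlap. Its log2 fold change was -1.65 (SE 0.29, adjusted p = 0.0453 from edgeR). This call held in 4 of 14 alternative analyses, with adjusted p from 1.38e-05 to 0.21, and the direction was the same in each. It was lost when any single mouse other than db/m mouse 3 was left out. On the other side of Gm16486, Pde4c, a cyclic AMP phosphodiesterase gene 6184 bases away, had a log2 fold change of -0.22 (SE 0.37). Rab3a, a GTPase gene of regulated exocytosis 37052 bases away, had -0.97 (SE 0.43, adjusted p = 0.334 from edgeR), and its groups overlapped. The other 7 neighbours of Gm16486 ranged from -1.15 for Gdf15 to 0.48 for Mpv17l2, and none of them was called.

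Gm16486 differed more than Jund did. For each 100 counts of Jund there were 0.554, 1.37 and 1.83 counts of Gm16486 in db/db against 21.7, 31.8 and 43.7 in db/m islets. These ratios did not overlap, and as they contain the counts on which Gm16486 was chosen, they were not tested.

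Polg2 also lies behind a gene on its own strand. Ddx5, a DEAD-box RNA helicase gene, ends 817 bases before Polg2, and it had 1342, 1089 and 1207 counts in db/db islets and 2298, 3268 and 2576 in db/m islets. The Ddx5 counts did not overlap between the groups. On the normalised scale they overlapped, with a log2 fold change of -0.71 (SE 0.34, adjusted p = 0.372 from edgeR). With library size alone the Ddx5 fold change was -1.25, beside a median of -0.59 for all tested genes. Ddx5 was called in 0 of 14 alternative analyses. Mir3064, a microRNA gene inside Ddx5 whose reads cannot be told apart from those of its host without knowing how overlaps were counted, had -0.84 (SE 0.60). For each 100 counts of Ddx5 there were 1.19, 3.76 and 2.24 counts of Polg2 in db/db against 14.3, 10.01 and 8.89 in db/m islets. The remaining 8 neighbours of Polg2 ranged from -0.39 for Kpna2 to 0.25 for Pecam1. With TMM, none of the 10 was called by edgeR or DESeq2 or had an unadjusted edgeR p under 0.05. With library size alone, all 10 were below 0 and their median was -0.65, beside -0.59 for all tested genes. At that scaling 3 of the 10 had an unadjusted edgeR p under 0.05, beside 2440 of the 12760 tested genes.

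The nearest tested gene to Kcnj12 on its upstream side was further away than those of Gm16486 and Polg2. It was Map2k3, a p38 pathway kinase gene at a distance of 69752 bases, with 165, 252 and 174 counts in db/db against 186, 167 and 212 in db/m islets. On the normalised scale, 2 of the 10 neighbours of Kcnj12, Map2k3 and Tmem11, were higher in db/db without overlap, beside 8.53% of all tested genes. The Map2k3 log2 fold change was 0.52 (SE 0.26, adjusted p = 0.395 from edgeR), and it was 0.01 with library size alone. For each 100 counts of Map2k3 there were 0, 0.397 and 0 counts of Kcnj12 in db/db against 127, 58.7 and 33.0 in db/m islets. Of the 10 neighbours of Kcnj12, 9 had a fold change above 0, the median was 0.27 and none was called by edgeR or DESeq2 or had an unadjusted edgeR p under 0.05. With library size alone, 6 of the 10 were below 0 and the median was -0.37, beside -0.59 for all tested genes. Rnf112, at -1.37 (SE 0.76), was the one below 0 with TMM, and it had 2 to 11 counts in db/db against 10 to 43 in db/m islets.

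**Figure D3:**
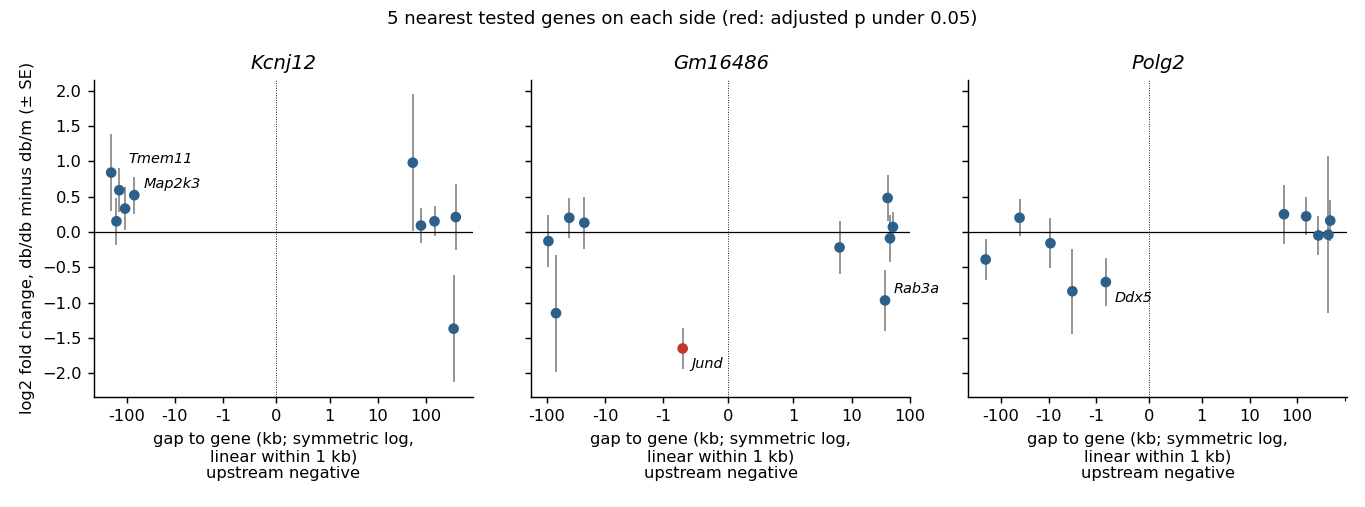
Log2 fold change of db/db minus db/m with its SE (vertical axis) for the 5 nearest tested genes on each side of Kcnj12, Gm16486 and Polg2, against the gap in kilobases (horizontal axis, symmetric log scale, upstream to the left). Jund (red, adjusted p under 0.05) is the one called neighbour, at -1.65.

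**Figure D4:**
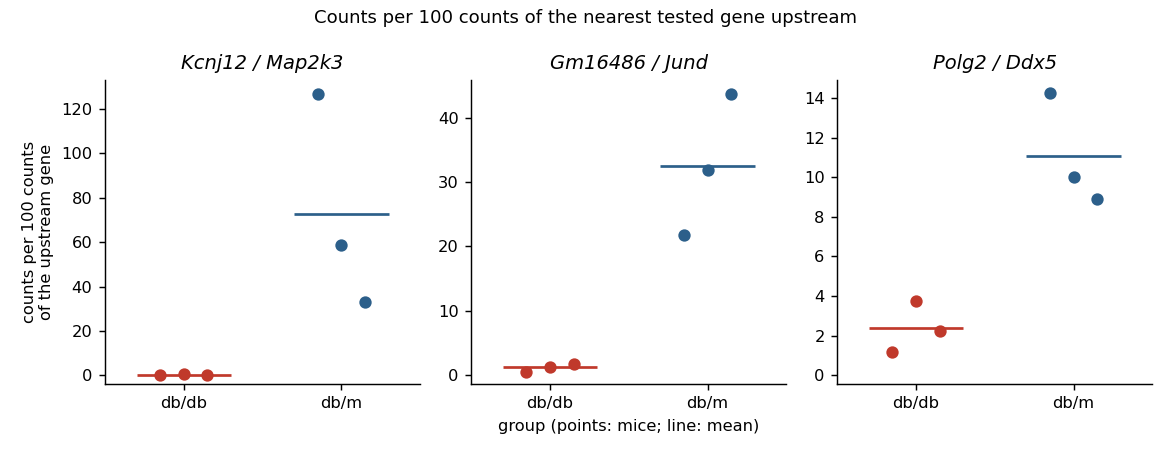
Counts of Kcnj12, Gm16486 and Polg2 per 100 counts of the nearest tested gene upstream (Map2k3, Jund and Ddx5) in each mouse; points are mice and lines are group means. In each panel the 3 db/db mice lie below the 3 db/m mice, with the narrowest gap for Polg2, from 3.76 to 8.89.

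Overlapping genes and repeated sequence were checked for their bearing on the counts. Gm34255 lies opposite Gm16486 and shares 540 exonic bases with it, and no row of the table was matched to it. Milr1, an allergy-related receptor gene of mast cells, lies opposite Polg2 and shares 132 exonic bases with it. Milr1 had 0, 1 and 6 counts in db/db islets and 13, 0 and 0 in db/m islets, too few to pass the filter. Whether counting used the strand was not given in the sources used here, so reads of the shared bases cannot be assigned to a strand. Of the 50-base windows of their exons, 0.436% for Kcnj12, 0.225% for Gm16486 and 3.17% for Polg2 occurred elsewhere in the genome.

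Relatives of Kcnj12 were measured in the same table. Of the 14 other Kir channel genes, 3 passed the filter and edgeR called none, with 1 at an unadjusted p under 0.05 and 1 called by DESeq2, which was Kcnj11 in both cases. Kcnj11, the pore subunit of the ATP-sensitive potassium channel of β cells, had 22, 70 and 53 counts in db/db islets and 791, 231 and 117 in db/m islets. The Kcnj11 groups did not overlap, and its log2 fold change was -2.35 (SE 0.55, unadjusted p = 0.00193, adjusted p = 0.0931 from edgeR). Without db/m mouse 1, the one with 791 counts, it was -1.61 (adjusted p = 0.217), and over 14 alternatives it ran from -3.07 to -1.31 with adjusted p from 5.29e-06 to 0.351. The difference of Kcnj11 lay beside that of the β-cell marker sum, which also separated the groups, and the part of β-cell content in it was not tested. Kcnj6, a G protein-gated channel gene, had -1.46 (SE 1.03), with 0, 25 and 3 counts in db/db against 76, 23 and 13 in db/m islets. Kcnj2, which encodes the Kir2.1 channel, had 0.07 (SE 0.66), with 5, 24 and 16 counts against 21, 8 and 29. Kcnj4, which encodes another Kir2 channel, had at most 4 counts in any mouse. The db/m level of Kcnj2 was 0.936 ± 0.570 CPM (SD, n = 3), below that of Kcnj12.

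For Polg2, the catalytic partner and the other proteins that maintain mitochondrial DNA were followed. Polg, the catalytic subunit of the same polymerase, had a log2 fold change of 0.03 (SE 0.33, adjusted p = 0.974 from edgeR). Of the 39 tested genes of mitochondrial DNA maintenance, none was called at an adjusted p under 0.05, and at an unadjusted p under 0.05 there were 1 lower and 2 higher. The lower one, which DESeq2 called, was Slc25a4, a mitochondrial ADP/ATP carrier gene, at -1.53 (SE 0.42, adjusted p = 0.136 from edgeR). The higher ones were Tymp, thymidine phosphorylase, at 1.10 (SE 0.36, adjusted p = 0.205 from edgeR), and Twnk, the replicative helicase listed as Peo1 in the table, at 0.66 (SE 0.25, adjusted p = 0.262 from edgeR). The median of the list was 0.16, beside a median of 0.00 over all tested genes. With scaling by library size alone, the list's median was -0.43 and that of all tested genes -0.59, so the direction of the list depended on the scaling while it stayed above the median of all genes.

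Transcripts that mitochondrial DNA itself encodes were counted for 13 of 15 listed genes, and 11 passed the filter. Neither edgeR nor DESeq2 called any of them, and all 11 had a log2 fold change below 0 with both TMM factors and library size alone, from -1.35 for ND4L to -0.24 for COX2 with TMM. This direction rested on db/m mouse 3, since without it 5 of the 11 were below 0, the median was 0.14 and 0 had an unadjusted p under 0.05. At an unadjusted p under 0.05 there were 3 lower, ND4L, ND6 at -0.97 (SE 0.31, adjusted p = 0.19 from edgeR) and COX3 at -0.78 (SE 0.33, adjusted p = 0.316). In all 6 mice the median over the 11 genes was -0.75, and with library size alone it was -1.24 beside -0.59 for all tested genes. COX1, the most abundant of them, had 11539, 13331 and 13000 counts in db/db islets and 24751, 21009 and 41585 in db/m islets, with a log2 fold change of -0.75 (SE 0.39, adjusted p = 0.409 from edgeR). The 13 genes together gave 1370, 1170 and 1320 normalised CPM in db/db against 1270, 1620 and 3500 in db/m islets. On this scale the groups overlapped and 1 db/m mouse stood high. Without TMM, the 13 genes took 0.0825%, 0.116% and 0.121% of the counts in db/db against 0.222%, 0.173% and 0.34% in db/m islets. These shares did not overlap, so the overlap depended on the scaling. The nuclear genome holds copies of mitochondrial sequence, and these values are uncertain where the counting could split such reads.

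**Figure D5:**
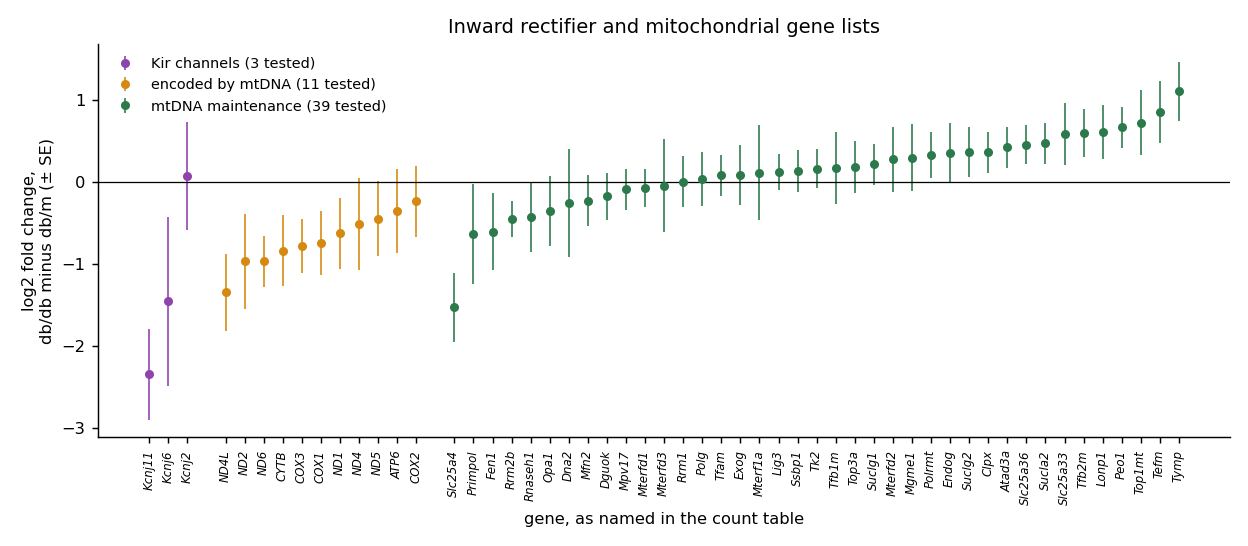
Log2 fold change of db/db minus db/m with its SE (vertical axis) for the tested Kir channel genes other than Kcnj12, the protein-coding genes of mitochondrial DNA and the genes of its maintenance other than Polg2, sorted within each list (horizontal axis). The 11 mitochondrially encoded genes lie below 0, as 5 of them did without db/m mouse 3, and the 39 maintenance genes lie on both sides of it, with Polg at 0.03.

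The genes with the pattern most like each of the 3 were found by Pearson's r of log2 CPM over the 6 mice, among 11558 genes with a mean of at least 1 CPM. These values are a description, since the 6 points fall into the 2 groups that were used to choose the genes, and any gene that separates the groups evenly scores high. The adjusted p-values of the genes found this way come from the same mice and are not independent of that choice. Kcnj12 was most like Creb3l2 (r = 0.9946), Galr1 (r = 0.9917) and Tppp3 (r = 0.9906). Creb3l2, a transcription factor gene of the secretory pathway, had a log2 fold change of -0.53 (SE 0.20) and was not called. Galr1, a galanin receptor gene, had 8, 19 and 14 counts in db/db islets and 197, 103 and 79 in db/m islets, and it was called lower at -2.67 (SE 0.39, adjusted p = 0.0246 from edgeR). Tppp3, a tubulin polymerization-promoting protein gene, was called lower at -2.57 (SE 0.43, adjusted p = 0.0402 from edgeR).

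Gm16486 was most like Egr1 (r = 0.9977), Pex19 (r = 0.9975) and Synrg (r = 0.9958). Egr1, an immediate early transcription factor gene, had 77, 175 and 204 counts in db/db islets and 3081, 3330 and 2656 in db/m islets. It was called lower at a log2 fold change of -3.89 (SE 0.37, adjusted p = 0.00416 from edgeR). Pex19, a peroxisome biogenesis gene, and Synrg, a gene of clathrin-coated vesicle traffic, had small differences of -0.54 and -0.43 that were not called. Polg2 was most like Mxd1 (r = 0.9976), Nfkbiz (r = 0.9955) and Fosb (r = 0.9936). Fosb, another AP-1 subunit gene, had 40, 88 and 56 counts in db/db islets and 4398, 4611 and 2620 in db/m islets, and it was called lower at -5.54 (SE 0.39, adjusted p = 0.000581 from edgeR). Nfkbiz, which encodes the nuclear inhibitor-like protein IκBζ, was called lower at -2.08 (SE 0.29, adjusted p = 0.0246 from edgeR). Mxd1, which encodes a partner of MAX, had -1.07 (SE 0.23, adjusted p = 0.0801 from edgeR). Among the 3 genes themselves, r was 0.9796 for Kcnj12 with Gm16486, 0.9747 for Kcnj12 with Polg2 and 0.9922 for Gm16486 with Polg2.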

How the data were processed

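Islet RNA-seq of 3 db/db and 3 db/m mice was used as deposited, as whole-number counts per gene. The authors trimmed the reads and aligned them to mm10. The study's methods name TopHat and the submitters' processing notes name HISAT2 2.0.4, and the counting program and its use of strand were not given in the sources used here. Genes were filtered with edgeR's filterByExpr, scaled by TMM and tested with edgeR 4.0.16 (R 4.3.3) by the quasi-likelihood test of db/db against db/m, with Benjamini-Hochberg adjustment over 12760 genes. No covariate was used. DESeq2 1.42.0 served as an alternative. The script was checked on simulated counts. Positions came from RefSeq on GRCm38.p6, with 31814 rows matched by symbol and 1708 by synonym. Nothing states that the mice of a group came from separate litters or extractions. The p-values therefore set the group difference against the variation between these samples, whatever its source.

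The genes named were the 3 members, the 5 nearest tested genes on each side and overlapping genes, listed genes called or with the smallest p, all tested Kir genes, and the 3 genes most like each member by Pearson's r of log2 CPM with a prior count of 2. The members and lists were chosen with earlier results of these data known. Alternatives were other scalings, filters, a replicate block and leaving out each mouse. Summed markers were compared by a two-sided exact permutation test. No column of the table was left out. Some sequence and a further gene are not reported here.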

Additional observations from a re-analysis of the deposited data

How the results depend on the processing

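The log2 fold change of Gm16486 ran from -6.69 to -5.86 and that of Polg2 from -3.45 (library size alone) to -2.68 over 14 alternatives, and leaving out single mice gave -6.45 to -5.86 and -3.20 to -2.68. The log2 ratio of mean Kcnj12 levels was -8.25, with -8.49 to -7.66 when any single mouse other than db/db mouse 2 was left out and -7.31 without both mice labelled 1, because it rests on 1 count in db/db mouse 2. Without that mouse all db/db counts are 0 and the ratio has no value. The number of genes called, 79, was 707 with DESeq2, 21 with library size alone, 52 with upper-quartile factors, 888 with no filter on low counts, and 10 to 333 without single mice, with 10 when db/db mouse 2 and 333 when db/m mouse 3 was left out. The cause of these changes was not tested. The called neighbour was lost, giving 0 of the 30 nearest genes and 0 within 1000000 bases, with library size alone, upper-quartile factors, without genes of 1% or more of a library, with the replicate block and without both mice labelled 1, and single mice left out gave 0 to 1, with the call kept only without db/m mouse 3. Within 1000000 bases, DESeq2 called 3 and no filter called 4. DESeq2 and no filter each called 1 Kir gene and 1 gene of mitochondrial DNA maintenance, as did leaving out db/m mouse 3 (0 to 1 over single mice), and 0 mitochondrially encoded genes were called under 14 alternatives, although their median turned from -0.75 to 0.14 without db/m mouse 3. The 142 genes at least 8-fold lower became 385 with library size alone, 478 at 4-fold and 79 to 254 without single mice. With the replicate number as a block, 16 genes were called, and Gm16486 and Polg2 had log2 fold changes of -6.26 and -2.97. Same-numbered mice did not deviate together (correlations of -0.51, -0.15 and -0.32). As the mice labelled 1 had the lowest β-cell marker sum in db/db and the highest in db/m, this check cannot show whether the numbers paired the samples. Depth limits Kcnj12 most: 0 counts in a db/db library allow up to 0.241 normalised CPM.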
